A study of Rattus norvegicus with 3 samples.

Results

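The genes described here are 10 components of transforming growth factor beta (TGF-beta) signalling, the 3 ligand genes Tgfb1, Tgfb2 and Tgfb3, the 3 receptor genes Tgfbr1, Tgfbr2 and Tgfbr3, and the 4 Smad genes Smad2, Smad3, Smad4 and Smad7. They were taken by symbol from a table of 17337 rat genes, and all 10 were found. RNA sequencing had been done on 3 libraries (n = 3) of wild-type, untreated primary glia labelled as Schwann cell precursors, which were cultured in DMEM-based modified Sato medium from dorsal root ganglia of embryonic rats. These libraries form the only group, so levels of genes were compared with each other and not between conditions. The labels do not say whether separate cultures were used, so errors and p-values cover no more than the variation among these libraries, part or all of which may be technical.

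TGF-beta ligands are secreted as latent dimers bound to their own propeptide and become active when freed from it. An active ligand binds the type II receptor Tgfbr2, which recruits and phosphorylates the type I receptor Tgfbr1, while Tgfbr3 (betaglycan) is a co-receptor that presents ligand. The type I receptor phosphorylates Smad2 and Smad3, which join Smad4 and enter the nucleus to regulate genes, and Smad7 is an inhibitory Smad that is itself a target of the pathway. In the Schwann cell lineage the pathway is known for effects on proliferation, on cell death in the developing nerve and on the behaviour of Schwann cells after injury.

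Total counts were 14139074 to 15309526 per library, at which 3 counts in a gene of median length correspond to 0.216 to 0.232 TPM (counts per base of listed gene length, brought to a common total in every library). The labelled cell type was checked against marker genes. Counts of markers above 1 TPM are to be read against all genes with a count, of which 78.4% were above and 17.8% below. All 10 precursor markers reported here were above 1 TPM by limma, led by Ednrb at 1414 ± 16.7, Ngfr at 655 ± 20.7 and Sox10 at 612 ± 26.0 TPM (mean ± SD here and below). The lowest of them were Tfap2a at 16.7 ± 0.633 TPM and Fabp7 at 3.32 ± 1.31 TPM, the latter on 11 to 20 counts. Both were below the median of all genes with a count, 21.7 TPM. Of the 10 fibroblast markers 9 were above 1 TPM, led by Col1a1 at 3842 ± 64.6, Col3a1 at 2009 ± 34.3 and Dcn at 842 ± 20.3 TPM. The fibroblast list summed to 8591 to 8789 TPM and the 10 precursor genes to 4061 to 4136 TPM, sums that depend on which genes each list holds. Col1a2 was at 0.137 ± 0.0393 TPM, but its exons are listed at 2 places in the genome, and of 397 such genes 85.6% were under 1 TPM, against 37.0% of the others. Sensory neuron markers summed to 636 to 666 TPM, with 10 of 10 measured genes above 1 TPM and Tubb3, Prph and Nefl highest at 185, 176 and 130.1 TPM. The median of this list was 9.06 TPM, and Elavl3, Elavl4, Rbfox3 and Isl1 were lowest at 4.73, 3.10, 2.57 and 2.23 TPM. Mural cell markers summed to 955 to 1006 TPM, with 7 of 7 above 1 TPM and Tagln, Acta2 and Pdgfrb highest at 466, 317 and 173 TPM. The remaining mural markers were much lower, with Des at 7.89, Cspg4 at 7.49, Rgs5 at 3.26 and Myh11 at 1.69 TPM. Macrophage markers summed to 25.2 to 30.3 TPM, with Lyz2, Tyrobp and Cd68 highest and Ptprc and Adgre1 under 1 TPM in every library. Endothelial markers summed to 34.0 to 36.4 TPM, with Cdh5, Emcn and Tek highest, while Pecam1 and Kdr were under 1 TPM in every library and Cldn5 had no count. Which cells of the cultures carried the RNA of the TGF-beta genes was not tested.

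All 10 TGF-beta genes were expressed. They lay above 1 TPM in each library, and by limma on log2(TPM + 1) with Benjamini-Hochberg adjustment all 10 were above 1 TPM, with the largest adjusted p at 3.83e-07 for Tgfb2. Of the 13345 genes with a count, 78.4% were above 1 TPM and 17.8% below, so detection alone does not set these genes apart. Their levels spread widely. In falling order of mean TPM they were Tgfbr2, Tgfbr3, Smad4, Tgfb1, Smad3, Smad2, Tgfbr1, Tgfb3, Smad7 and Tgfb2. The first 7 were above the median of all genes with a count, 21.7 TPM, and the last 3 below it. For each pair of neighbours in this order the lowest library of the higher gene exceeded the highest library of the lower gene.

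**Figure D1:**
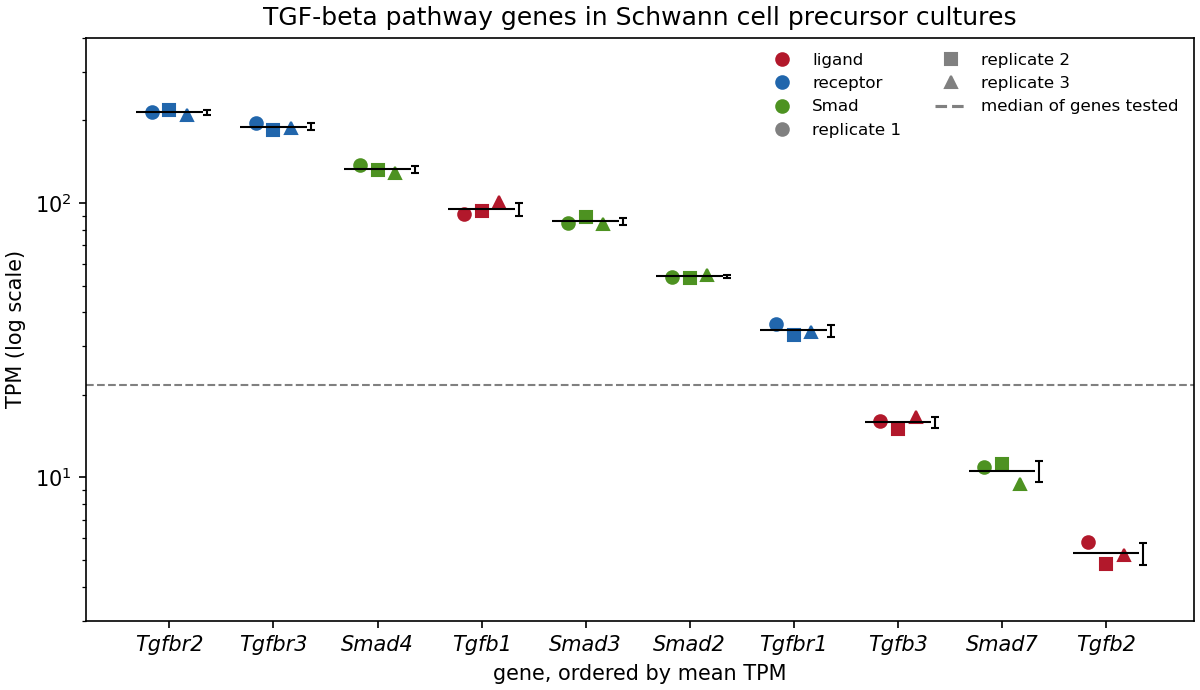
TPM (log scale) of the 10 genes in each of the 3 libraries, coloured by role, with the mean as a line and the SD as a bar to its right; the dashed line is the median of all genes with a count, 21.7 TPM. The 2 most abundant genes are receptors, 209 to 218 TPM for Tgfbr2 and 185 to 196 TPM for Tgfbr3, and the libraries of neighbouring genes do not overlap.

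Among the ligands Tgfb1 dominated. It had 978, 934 and 1013 counts and 90.8, 93.2 and 101 TPM in replicates 1, 2 and 3, a mean of 95.0 ± 5.32 TPM, and 16.5% of the genes with a count had a higher mean. Replicate 3 was the highest for this gene. Tgfb3, which like Tgfb2 is known for roles in embryonic development, had 311, 270 and 298 counts and 16.1, 15.0 and 16.5 TPM, a mean of 15.9 ± 0.790. Tgfb2 was the lowest of the 10 genes, with 123, 95 and 103 counts and 5.81, 4.82 and 5.22 TPM, a mean of 5.28 ± 0.497, and its highest library was replicate 1. The libraries of the 3 ligands did not overlap. Tgfb1 made up 81.8 ± 1.04% of the summed ligand TPM, Tgfb3 13.7 ± 0.525% and Tgfb2 4.56 ± 0.516%.

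The question of which ligand is most abundant was tested by setting each gene against Tgfb1 within each library, as log2 ratios with 0.1 TPM added, in a limma fit over 13344 genes. Tgfb3 was lower by a log2 ratio of -2.57 ± 0.09 (SE), or 5.96-fold, and Tgfb2 by -4.15 ± 0.13, or 17.7-fold. Both were lower in 3 of 3 libraries. The limma adjusted p of this first fit was 5.57e-165 for Tgfb3 and 7.06e-223 for Tgfb2, too small to take at face value with 3 libraries. With the variances of both genes summed, a setting chosen after seeing the data, the SE was 0.06 for Tgfb3 and 0.10 for Tgfb2. The limma adjusted p was then 7.38e-14 for Tgfb3 and 1.13e-11 for Tgfb2. In the first fit 81.8% of all genes were lower than Tgfb1 and 15.2% higher, so a gene taken at random is also usually lower. On the CPM scale, which divides counts by the library total and not by gene length, Tgfb3 was lower by -1.73 ± 0.07 (SD) and Tgfb2 by -3.18 ± 0.18. The listed lengths are 1457 bases for Tgfb1, 2619 for Tgfb3 and 2867 for Tgfb2.

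The receptor genes were the most abundant of the 3 roles, summing to 438 ± 8.13 TPM, against 283 ± 5.27 for the 4 Smads and 116 ± 5.71 for the ligands. Tgfbr2, the ligand-binding type II receptor, had 3302, 3113 and 2990 counts and 215, 218 and 209 TPM in replicates 1, 2 and 3, a mean of 214 ± 4.50. Only 6.71% of the genes with a count had a higher mean. Tgfbr3, the co-receptor known for presenting the Tgfb2 protein to the type II receptor, had 5679, 4993 and 5095 counts and 196, 185 and 188 TPM, a mean of 189.5 ± 5.52. The co-receptor gene was thus almost as abundant as Tgfbr2 while Tgfb2 was the lowest of the 10. Tgfbr1, the type I receptor that carries the signal to Smad2 and Smad3, had 1529, 1292 and 1327 counts and 36.3, 32.9 and 33.8 TPM, a mean of 34.3 ± 1.74. All 3 Tgfbr1 libraries were far below those of the other receptors, and the gene made up 7.84 ± 0.277% of the summed receptor TPM.

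Against Tgfbr2 as the reference, Tgfbr1 was lower by a log2 ratio of -2.64 ± 0.05 (SE), or 6.22-fold, with a limma adjusted p of 8.88e-14, and it was lower in 3 of 3 libraries. Tgfbr3 was lower by -0.18 ± 0.03, or 1.13-fold, with a limma adjusted p of 0.000166, also in 3 of 3 libraries. Fitted without the variance trend, the limma adjusted p was 1.25e-05 for Tgfbr1 and 0.0183 for Tgfbr3, so the size of these p-values depends on the variance estimate. Of all genes 92.9% were lower than Tgfbr2 and 6.34% higher. The size of the receptor differences rests on gene length. The listed length is 2078 bases for Tgfbr2, 3931 for Tgfbr3 and 5707 for Tgfbr1, and on the CPM scale Tgfbr1 was lower by only -1.18 ± 0.08 (SD), while Tgfbr3 was higher than Tgfbr2 by 0.74 ± 0.05. The order of Tgfbr2 and Tgfbr3 therefore holds only per listed base.

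**Figure D2:**
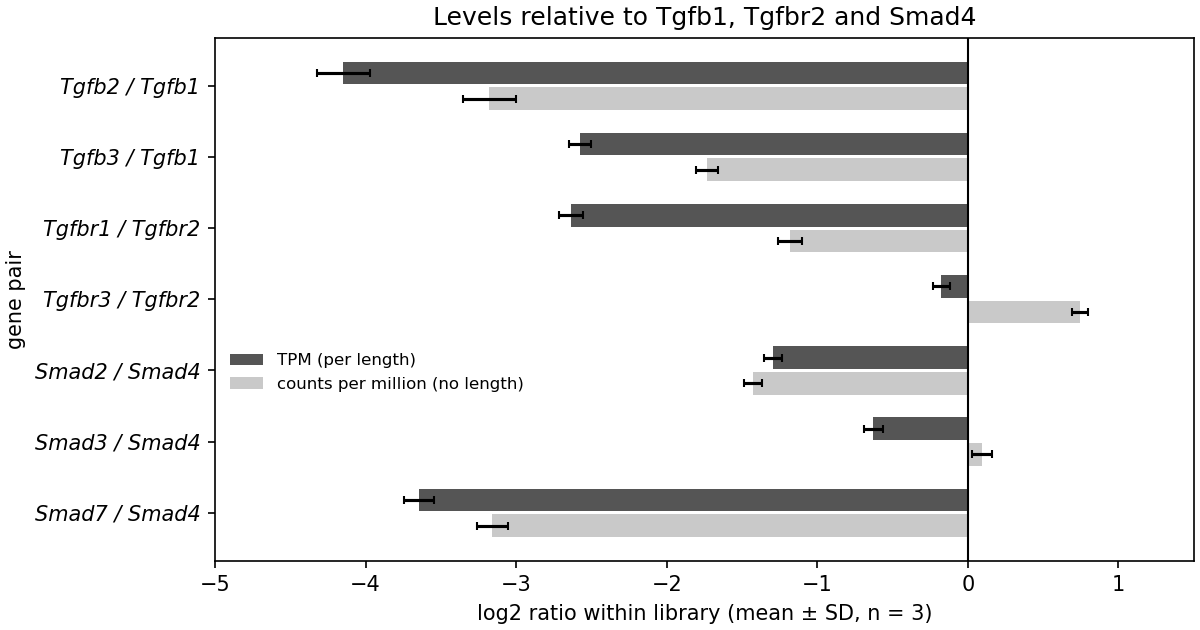
Log2 ratios within libraries (mean, with the SD over 3 libraries as error bars) of the other ligands to Tgfb1, the other receptors to Tgfbr2 and the other Smads to Smad4, from TPM (dark) and from CPM, without division by length (light). Tgfbr3 and Smad3 change side of 0, from -0.18 to 0.74 and from -0.63 to 0.09, and the other 5 ratios are negative on both scales.

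Among the Smads the shared partner came first. Smad4 had 3097, 2761 and 2705 counts and 137, 131 and 129 TPM, a mean of 132 ± 4.37. Of the 2 receptor-activated Smads of the pathway, Smad3 had 3154, 3067 and 2907 counts and 84.7, 88.5 and 83.8 TPM, a mean of 85.7 ± 2.49. Smad2 had 1106, 1022 and 1048 counts and 53.8, 53.4 and 54.7 TPM, a mean of 54.0 ± 0.672. Every Smad3 library was above every Smad2 library, and the log2 ratio of Smad3 to Smad2 was 0.67 ± 0.06 (SD), or 1.59-fold. The inhibitory Smad7 had 347, 330 and 280 counts and 10.9, 11.2 and 9.47 TPM, a mean of 10.5 ± 0.921, with replicate 3 the lowest, and it made up 3.72 ± 0.264% of the summed Smad TPM.

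With Smad4 as the reference, Smad3 was lower by a log2 ratio of -0.63 ± 0.04 (SE), Smad2 by -1.29 ± 0.04 and Smad7 by -3.64 ± 0.07, or 1.54-fold, 2.45-fold and 12.5-fold. The limma adjusted p was 8.37e-09, 1.64e-11 and 9.50e-13, and each gene was lower in 3 of 3 libraries. Fitted without the variance trend, the limma adjusted p was 0.000464, 5.18e-05 and 1.37e-05 in the same order. The size of these p-values thus depends on how the variance is estimated from 3 libraries. Of all genes 87.7% were lower than Smad4 and 10.9% higher. Smad3 has the longer listed model, 5037 bases against 3054 for Smad4 and 2783 for Smad2. On the CPM scale Smad3 was slightly above Smad4 in 3 of 3 libraries (log2 ratio 0.09 ± 0.06, SD). The limma adjusted p was 0.0083, but the same fit gave 3.48e-268 for Smad2, too small to take at face value with 3 libraries. The p for Smad3 therefore carries little weight. On that scale Smad2 stayed below Smad4 at -1.43 ± 0.06 and Smad7, with 4297 listed bases, at -3.16 ± 0.10. Smad3 exceeded Smad2 on both scales, by 1.52 in log2 CPM.

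Across roles, the smallest step in the order was that from Tgfb1 to Smad3, a log2 ratio of 0.15 ± 0.11 (SD), with 90.8 TPM in the lowest Tgfb1 library and 88.5 TPM in the highest Smad3 library. The next smallest was that from Tgfbr2 to Tgfbr3, 0.18 ± 0.05. The widest was that from Tgfbr1 to Tgfb3, 1.11 ± 0.07 or 2.16-fold. On the CPM scale the order became Tgfbr3, Tgfbr2, Smad3, Smad4, Tgfbr1, Smad2, Tgfb1, Smad7, Tgfb3 and Tgfb2. Tgfb1 thus moved from the fourth place to the seventh, and Tgfb2 stayed last.

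The libraries were close to each other for these genes. The highest library exceeded the lowest by 1.02-fold for Smad2 to 1.21-fold for Tgfb2, where the median over 9322 genes at a mean of 5 TPM or more was 1.08-fold. The coefficient of variation was 1.25% for Smad2 and 2.10% for Tgfbr2, and it was highest for the 2 genes with the lowest levels, 8.75% for Smad7 and 9.42% for Tgfb2. Counting error alone (the inverse square root of the counts) gives 9.71% for Tgfb2, 5.85% for Tgfb3 and 3.07% for Smad2, so for these 3 genes the observed spread was no larger than counting error. For Smad7 counting error gives 5.62%, for Tgfb1 3.20% against an observed 5.59%, and for Tgfbr1 2.69% against 5.06%. Such counting errors treat each read as a molecule, which reads without molecular identifiers need not be.

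**Figure D3:**
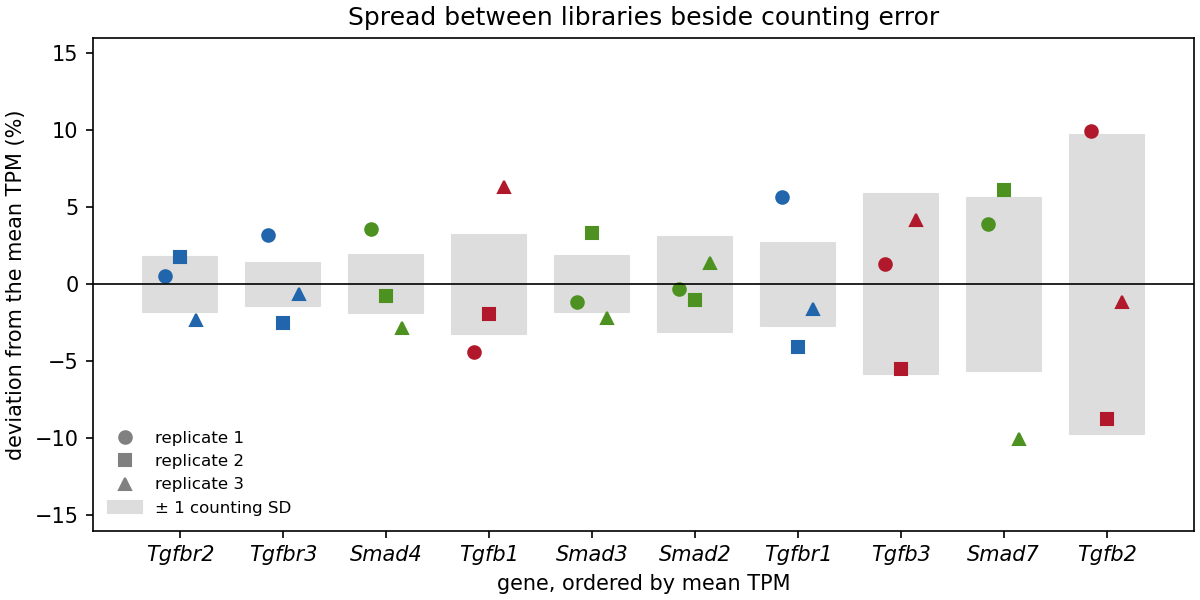
Deviation of each library from the gene's mean TPM, in percent, for the 10 genes in order of level; grey boxes span 1 counting SD on either side of 0. The widest deviations belong to Smad7 and Tgfb2, whose coefficients of variation were 8.75% and 9.42%.

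In rn6 coordinates the 10 genes lie on 7 chromosomes, each at a single place, and none shares exonic bases with another gene of the table. Smad4 (NCBI gene 50554, minus strand, 69626682 to 69657373), Smad7 (81516, plus strand, 71395830 to 71424159) and Smad2 (29357, plus strand, 72550219 to 72612078) follow each other on chromosome 18, with 1.74 Mb between Smad4 and Smad7 and 1.13 Mb between Smad7 and Smad2. In that order along the chromosome their levels were 132, 10.5 and 54.0 TPM. Smad3 (25631, minus strand, 68569530 to 68678349) and Tgfbr2 (81810, minus strand, 124312829 to 124398864) share chromosome 8 but are 55.6 Mb apart. Tgfb1 (59086) has 7 exons on chromosome 1 (plus strand, 82480875 to 82497196), Tgfb2 (81809) has 8 on chromosome 13 (minus strand, 105041053 to 105140780) and Tgfb3 (25717) has 7 on chromosome 6 (minus strand, 109913757 to 109935533). Tgfbr1 (29591) has 9 exons on chromosome 5 (plus strand, 63056081 to 63119635) and Tgfbr3 (29610) has 17 on chromosome 14 (plus strand, 3506416 to 3680508).

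The sequence around the start sites of the genes was taken from RefSeq (GRCr8 build, 250 bases before to 50 after the start, all 10 genes matched). The GC box GGGCGG, a letter match of the motif known for Sp1-type factors, was searched on both strands. It was found for all 3 receptor genes and for Smad2, Smad3 and Smad7, but for no ligand gene and not for Smad4, where 33.1% of the 33469 rat windows hold it. GC content was 59.0%, 69.7% and 74.7% for Tgfbr2, Tgfbr3 and Tgfbr1, and 47.7%, 57.7% and 59.0% for Tgfb3, Tgfb1 and Tgfb2, beside a median of 51.7% over all windows. Among the Smads it was 31.7% for Smad4, 69.7% for Smad3, 77.7% for Smad7, and 80.0% and 82.7% in the 2 windows of Smad2. The windows of the receptor and the ligand with the highest TPM are shown to let these letters be compared, 5′ to 3′ on the gene's strand with the GC box in capitals. Neither the Smad-binding palindrome GTCTAGAC (in 0.197% of all windows) nor the AP-1 letters TGAGTCA (in 4.63%), both searched on both strands, was found in the window of any of the 10 genes.
Tgfbr2 (chr8:124761420-124761719, minus strand): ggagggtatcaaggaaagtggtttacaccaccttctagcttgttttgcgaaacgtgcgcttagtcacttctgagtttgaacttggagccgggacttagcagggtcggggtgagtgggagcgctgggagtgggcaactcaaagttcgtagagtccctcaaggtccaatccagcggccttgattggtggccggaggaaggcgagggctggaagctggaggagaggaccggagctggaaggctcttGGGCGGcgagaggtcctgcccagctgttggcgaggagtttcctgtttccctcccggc
Tgfb1 (chr1:90324062-90324361, plus strand): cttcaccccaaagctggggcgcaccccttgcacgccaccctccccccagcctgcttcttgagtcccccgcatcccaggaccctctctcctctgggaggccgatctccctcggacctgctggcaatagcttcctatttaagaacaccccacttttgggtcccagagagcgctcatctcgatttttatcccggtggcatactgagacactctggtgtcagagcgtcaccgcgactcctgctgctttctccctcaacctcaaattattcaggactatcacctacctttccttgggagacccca

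The other genes of the pathway are given by list, and each count is to be read against the 78.4% of genes with a count that were above 1 TPM and the 17.8% below. Over all 17337 genes listed, with those without a count included, the shares were 60.3% above, 13.7% below and 23.0% with no count. Of 19 measured latency and activation genes, which store and release the latent ligands, 17 were above 1 TPM and 2 below by limma, with a median of 89.5 TPM beside 21.7 for all genes with a count. The highest were the integrin subunit Itgb1 at 964 ± 25.2 TPM, the membrane protease Mmp14 at 807 ± 13.3, the gelatinase Mmp2 at 729 ± 6.88 and the thrombospondin Thbs2 at 407 ± 6.46. Integrin β subunits that act in releasing the ligand were unequal. Itgb8 was at 341 ± 14.4 TPM, Itgb5 at 89.5 ± 3.14 and Itgb3 at 46.3 ± 1.27, whereas Itgb6 was at 0.0693 ± 0.0794 and below 1 TPM. Among the latent TGF-beta binding proteins, which tether the latent complex in the matrix, Ltbp3 was at 109.6 ± 5.26, Ltbp1 at 47.2 ± 1.22, Ltbp4 at 30.8 ± 1.49 and Ltbp2 at 6.05 ± 0.984 TPM. Of the membrane anchors of latent ligand, Lrrc32 (GARP) was at 32.1 ± 2.32 TPM and Nrros, its relative in myeloid cells and microglia, was below 1 TPM at 0.189 ± 0.0788.

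Levels of the extracellular binders of TGF-beta ranged widely. Of 7 measured, 5 were above 1 TPM, 1 below and 1 without a count, beside 60.3% above 1 TPM over all genes listed, with a median of 42.5 TPM. The secreted protease Htra1 was at 1216 ± 5.18 TPM, the proteoglycans Bgn and Dcn at 1206 ± 31.4 and 842 ± 20.3, and the membrane protein Vasn at 42.5 ± 0.848. The protease inhibitor A2m was at 3.41 ± 0.868 and the proteoglycan Fmod at 0.414 ± 0.155 TPM, and Aspn had no count. A2m and Aspn are listed at 2 places in the genome. Dcn is also one of the fibroblast markers given above.

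Of the receptor partners, 10 of 10 were above 1 TPM (78.4% of all genes with a count), with a median of 49.9 TPM. Fkbp1a, the immunophilin that binds the resting type I receptor, was at 1761 ± 10 TPM, Strap, which is known to bind the receptors and Smad7, at 180.1 ± 3.82, the endosomal adaptor Hgs at 124 ± 3.18, and the pseudoreceptor Bambi at 59.1 ± 4.71. The co-receptor Eng (endoglin) and the type I receptor Acvrl1, both known from endothelium, were at 10.8 ± 0.892 and 10.3 ± 0.412 TPM. They were below each of the 3 TGF-beta receptors in every library.

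The activin and nodal branch, whose ligands also act through Smad2 and Smad3, had a median of 0.294 TPM over 18 measured genes, 6 without a count included. Of the 12 with a count 8 were above and 4 below 1 TPM, where 78.4% and 17.8% of all genes with a count were. The ligands Gdf11 and Inhba were at 64.7 ± 1.30 and 19.8 ± 0.606 TPM, and the receptors Acvr2a and Acvr1b at 22.9 ± 0.420 and 19.7 ± 1.37, each receptor under the lowest Tgfbr1 library. Inhbb, Inhbe, Lefty2 and Mstn were below 1 TPM, at 0.0857 to 0.408. Acvr1c, one of the receptors of nodal, and Nodal, Lefty1, Gdf3 and Inhbc had no count. Gdf1 also had none, but all of its listed exons are shared with Cers1 on the same strand, so its level cannot be read from this table.

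**Figure D4:**
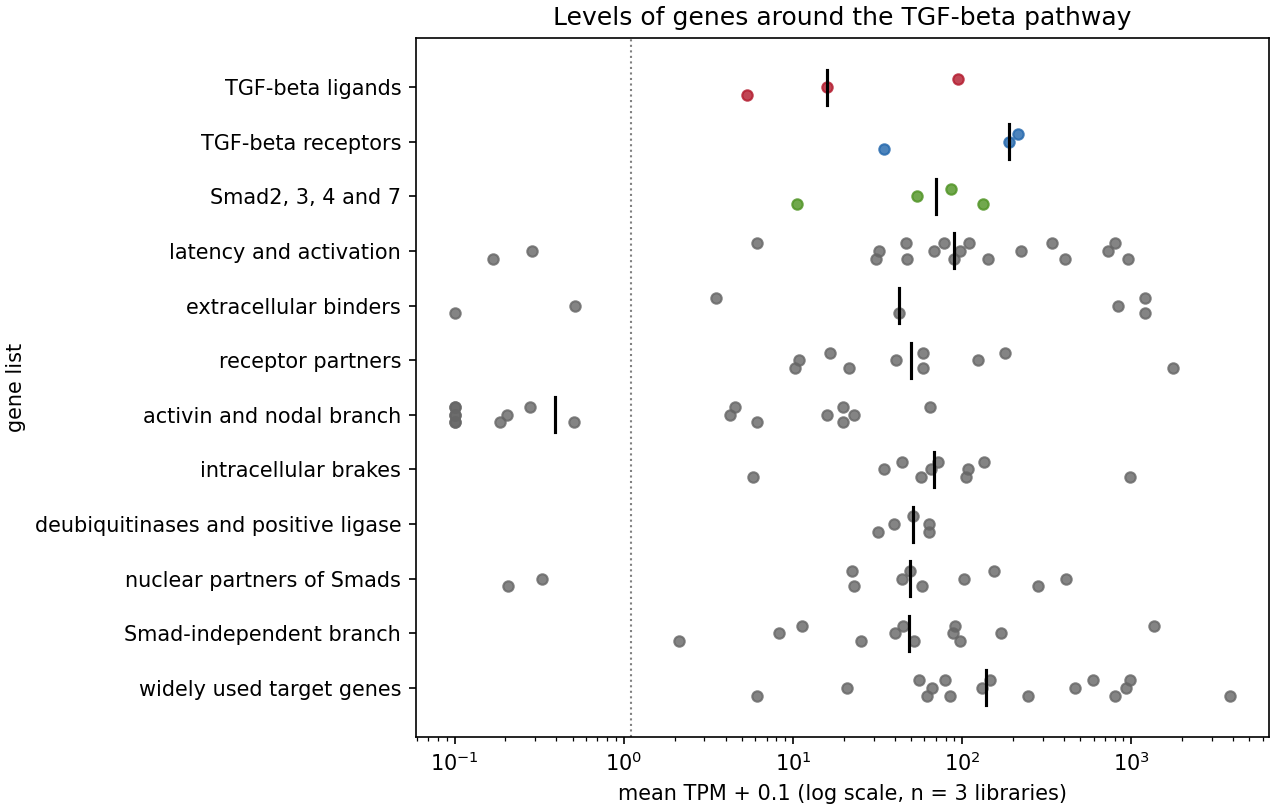
Mean TPM + 0.1 over 3 libraries (log scale) of each measured gene in 9 lists of pathway genes (grey) below the 10 ligand, receptor and Smad genes (coloured), with the median of each row as a black line and 1 TPM as the dotted line. The activin and nodal branch has the lowest median, 0.294 TPM, and the target genes have the highest of the grey rows, 138 TPM.

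The measured intracellular brakes were above 1 TPM in 10 of 10 cases (78.4% of all genes with a count), with a median of 68.7 TPM. Pmepa1, a target gene whose product binds Smads and restrains the pathway, was at 991 ± 41.2 TPM, on a listed length of 693 bases. Ppp1r15a, which can direct a phosphatase to the type I receptor, was at 135 ± 2.26 TPM, the ubiquitin ligase Smurf1 at 108 ± 1.89 and the Smad phosphatase Ppm1a at 104.9 ± 1.1. Smurf2, which like Smurf1 works with Smad7, was at 44.0 ± 0.971 TPM, and the other inhibitory Smad, Smad6, was at 5.75 ± 0.532 TPM, below Smad7 in every library. The 4 deubiquitinases and the ligase Rnf111, which favour signalling, were all above 1 TPM as well, with a median of 51.3 TPM. Usp11 and Usp9x were at 63.9 ± 1.83 and 63.4 ± 2.56 TPM, Usp4 at 51.3 ± 1.41, Usp15 at 39.3 ± 0.824 and Rnf111 at 31.6 ± 0.727.

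Of 11 measured nuclear partners of Smads 9 were above and 2 below 1 TPM, near the 78.4% and 17.8% of all genes with a count, with a median of 49.0 TPM. Jun was at 414 ± 31.0, the zinc finger repressors Zeb2 and Zeb1 at 283 ± 8.58 and 102 ± 4.67, and Fos at 154.6 ± 12.3 TPM. Foxh1, the partner of Smads in nodal signalling, was at 0.107 ± 0.120 and Runx3 at 0.228 ± 0.106 TPM, both below 1 TPM, while Runx2 and Runx1 were at 58.1 ± 0.407 and 23.0 ± 0.816. For Foxh1, 23.0% of the listed exonic bases overlap Kifc2 on the other strand, and whether strand was used in counting is not given in the sources used here.

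In the Smad-independent branch 12 of 12 measured genes were above 1 TPM (78.4% of all genes with a count), with a median of 48.3 TPM. The GTPase Rhoa was at 1369 ± 10.5 TPM, the adaptor Shc1 at 171 ± 1.98, the TAK1 partner Tab2 at 97.2 ± 4.33 and the ubiquitin ligase Traf4 at 90.7 ± 6.85. Map3k7, the gene of the kinase TAK1 itself, was at 2.02 ± 0.359 TPM. Its exons are listed at 2 places in the genome, and whether this affected its level was not tested.

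All 16 genes reported here that are widely used as TGF-beta targets were above 1 TPM (78.4% of all genes with a count), and their median of 138 TPM was the highest of the 9 lists. Beside Pmepa1 they were led by Col1a1 at 3842 ± 64.6, Fn1 at 932 ± 42.6 and Postn at 800.4 ± 35 TPM. Tgfbi was at 247 ± 7.60 and the matricellular gene Ctgf at 146 ± 2.04 TPM. Col1a1 and Postn are fibroblast markers and Tagln, at 466 ± 13.0 TPM, a mural marker, and the part of such cells in these levels was not tested. The libraries hold no sample with the pathway blocked or stimulated, so these are levels and not responses.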

How the data were processed

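Per the submitters' processing notes, STAR 2.5.2b, Subread and genome build rn6 were used. The annotation, the strand setting and what was done with multi-mapping reads are not stated there or in the labels. The authors deposited raw counts per gene and TPM made from those counts and the listed gene lengths; recomputed TPM differed from the deposited values by at most 0.0005. Left out were 6 columns of totals and 2 nameless rows. Any 2 libraries differed by more than counting noise (chi-square per degree of freedom 1.67 to 2.35), so none was treated as a library deposited under 2 names. Technical variation also gives values above 1, so this does not show separate cultures.

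Levels were tested with limma 3.58.1 (R 4.3.3), a moderated one-sample test with trend on log2(TPM + 1) against 1 TPM, two-sided, over 13345 genes with a count, with Benjamini-Hochberg adjustment at 0.05. Within-library log2 ratios to Tgfb1, Tgfbr2 or Smad4 were tested likewise with 0.1 TPM added. On simulated data for ratios to Tgfbr2 (13102 genes, 100 simulations) 100% of genes at log2 ratios of -2, -1 and 0.5 were called, and 6% at 0. Ratios to Tgfb1 or Smad4 and ratios on the CPM scale were not simulated. With 1 group, counts had no contrast to test. TMM factors came from edgeR 4.0.16.

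Of 172 list symbols 162 were matched, 2 by gene identifier (Ctgf and Cyr61); 10 were not used here, and a few others on the lists are not reported. A gene was called listed at 2 places where its exons lie on 2 chromosomes or strands, or where the second part of its exons repeats the lengths of the first. Named genes are the 10 described, the 4 highest of each pathway list with up to 4 not above 1 TPM, and the 3 highest reported of each marker list with those under 1 TPM. Other genes were named after their values were seen. The members and lists were chosen with earlier results of these data known. Alternatives were other pseudocounts, filters, levels, variance estimates and scalings, values without length, and leaving out each library.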

Additional observations from a re-analysis of the deposited data

How the results depend on the processing

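All 10 genes stayed above 1 TPM under every alternative pseudocount, filter, variance estimate, scaling and omitted library, and above 0.5 TPM; against 5 TPM 9 of 10 passed, and Tgfb2 did not (log2 difference 0.06, limma adjusted p 0.448). The counts of pathway genes above 1 TPM in each list stayed within 1.5 times. The number of all genes below the level was 2374, and 6235 with no filter, 1372 with a mean of at least 0.1 TPM and 3836 against 5 TPM, since the number of low genes tested or the level itself changes. Leaving out length was the only alternative that turned a direction among the ratios. On the CPM scale Tgfbr3 over Tgfbr2 became 0.74 and Smad3 over Smad4 0.094, and 3236 genes were higher than Tgfb1 in place of 2025. Steps between neighbours in the order became -0.74 for Tgfbr2 over Tgfbr3, 0.88 for Tgfbr3 over Smad4, 1.55 for Smad4 over Tgfb1, -1.64 for Tgfb1 over Smad3, 1.52 for Smad3 over Smad2, -0.38 for Smad2 over Tgfbr1, 2.24 for Tgfbr1 over Tgfb3, -0.12 for Tgfb3 over Smad7 and 1.58 for Smad7 over Tgfb2. Levels between genes therefore rest on the listed lengths. Omitting any 1 library changed no call for the 10 genes. Tgfb2, with 95 to 123 counts, is the gene most limited by depth. No paired analysis was possible because the libraries form 1 group.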
